A study of Mus musculus with 6 samples.

Results

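The 7 genes described here encode cytoplasmic intermediate filament proteins and were chosen by name: the glial filament genes Gfap, Vim, Nes and Synm, and the simple epithelial keratins Krt8, Krt18 and Krt19. All 7 of 7 symbols were found among the 24346 gene symbols of each table. They were measured by RNA-seq of whole mouse retina in 3 Unc119-/- libraries, called knockout here, and 3 Unc119+/+ libraries, called wild type. The labels give no age, strain, sex or pooling of animals, no description of the allele, and no statement that libraries of a genotype came from separate mice, so p-values measure the spread between libraries, part of which may be technical. Values are FPKM, fragments scaled to transcript length and to the mapped fragments of the library, as the authors deposited them.

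Intermediate filaments are the flexible, tension-bearing cables of the cytoskeleton, and each cell type builds them from its own set of proteins. In the retina, vimentin is the standing filament of Müller glia, the radial glia that span the tissue, and GFAP is mostly a protein of astrocytes that Müller glia take up when the retina is stressed or injured. Nestin and synemin cannot form filaments on their own and join those of vimentin. Keratins form obligate pairs of a type I and a type II protein, and K18 (type I) with K8 (type II) is the usual pair of simple epithelia, with K19 as a further type I partner.

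The genes sit at separate places in the genome except for the keratin pair. On mm10 (GENCODE M21), Gfap (ENSMUSG00000020932.14) spans positions 102887336 to 102900912 of chromosome 11, minus strand. Krt18 (ENSMUSG00000023043.7, 102028180 to 102032027, plus strand) and Krt8 (ENSMUSG00000049382.10, 101996698 to 102004482, minus strand) are neighbours on chromosome 15, with 23697 bases between them. Vim (ENSMUSG00000026728.9) lies on chromosome 2, from 13573927 to 13582826, and Nes (ENSMUSG00000004891.16) on chromosome 3, from 87971078 to 87980451, each on the plus strand. Synm (ENSMUSG00000030554.16) lies on chromosome 7, from 67730160 to 67759742, minus strand. Krt19 (ENSMUSG00000020911.14, 100140810 to 100148665, minus strand) and Gfap are on the chromosome of Unc119, 21.8 and 24.5 Mb away from it.

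The promoter windows of Gfap and Krt18, the members that passed the test, and of Krt8, the neighbour and partner of Krt18, are shown because the title of the study names JAK-STAT and NF-kB signalling. Each window holds the 250 bases before and the 50 bases after the RefSeq start on the coding strand, from RefSeq on GRCm38.p6, the same assembly as mm10. Capitals mark every match to 5 motifs searched on both strands: a STAT site (TTCNNNGAA), an AP-1 site (TGANTCA), the core of an NF-kB site (GGGNNTTTC), an Sp1 site (GGGCGG) and a TATA box (TATAAA).
Gfap, chr11:102897151-102897450, minus strand: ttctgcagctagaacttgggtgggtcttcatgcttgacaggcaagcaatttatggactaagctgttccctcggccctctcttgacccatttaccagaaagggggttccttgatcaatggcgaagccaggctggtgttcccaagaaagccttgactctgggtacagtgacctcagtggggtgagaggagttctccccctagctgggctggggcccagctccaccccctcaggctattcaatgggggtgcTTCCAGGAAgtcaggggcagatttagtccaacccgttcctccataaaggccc
Krt18, chr15:102027966-102028265, plus strand: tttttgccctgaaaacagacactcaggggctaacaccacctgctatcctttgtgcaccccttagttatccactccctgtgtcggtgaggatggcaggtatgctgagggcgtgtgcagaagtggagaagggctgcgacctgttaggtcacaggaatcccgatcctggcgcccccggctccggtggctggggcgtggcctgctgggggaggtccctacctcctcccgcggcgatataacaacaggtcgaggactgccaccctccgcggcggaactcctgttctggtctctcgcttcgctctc
Krt8, chr15:102004293-102004592, minus strand: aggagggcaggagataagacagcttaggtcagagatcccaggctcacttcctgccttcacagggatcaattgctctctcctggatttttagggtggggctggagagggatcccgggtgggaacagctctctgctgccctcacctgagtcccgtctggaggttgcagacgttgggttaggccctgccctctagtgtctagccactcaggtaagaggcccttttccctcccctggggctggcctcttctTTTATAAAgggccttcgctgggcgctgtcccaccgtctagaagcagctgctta
The Gfap window held 1 STAT match, TTCCAGGAA, at bases 249 to 257 of the window, across the RefSeq start. That window lies inside the GENCODE span of Gfap, which reaches to 102900912. Bases outside the windows were not searched. A STAT match stood in 8.30% of the 32851 promoter windows of the table, so such a match is not particular to Gfap. The Krt18 window held no match to any of the 5 motifs, and the Krt8 window held a TATA match in each direction, at bases 248 to 253 and 250 to 255, which overlap. The shares of all windows with a match were 7.81% for AP-1, 4.36% for NF-kB, 35.7% for Sp1 and 13.6% for TATA. Windows were found for 6 of the 7 members. That of Vim held 1 NF-kB and 1 TATA match, that of Nes 2 Sp1 matches and that of Synm none.

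The libraries were of retina by their markers, with Gnat1, the transducin alpha subunit gene of rods, between 5918 and 6528 FPKM in all 6. Unc119 itself measured 473 ± 32.8 FPKM in knockout and 1195 ± 10.1 FPKM in wild type (SD, n = 3 each, log2 change −1.34, limma adjusted p = 6.6e-05), in the direction of the labels. Depth is unknown in reads; relative to wild-type replicate 2 it was 0.935, 0.931 and 0.964 in knockout replicates 1, 2 and 3, and 0.763 and 0.805 in wild-type replicates 1 and 3. Knockout replicate 3 stood apart by RNA of other eye tissue. The summed FPKM of 10 lens markers was 227, 518 and 10620 in knockout replicates 1, 2 and 3, and 109, 657 and 0.611 in wild-type replicates 1, 2 and 3. The summed pigment epithelium markers were also highest in knockout replicate 3, at 89.1 FPKM against at most 49.0 FPKM in the other 5. By Xist and Y-linked genes, knockout replicate 1 and wild-type replicates 1 and 2 were male and the other 3 libraries female, so sex and genotype are partly mixed.

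Genotypes were compared with limma on log2(FPKM + 1) over the 14176 genes with a mean of at least 0.5 FPKM, with Benjamini-Hochberg adjustment over all of them. Of the 7 members 6 were tested, and 2 rose in the knockout, Gfap and Krt18. For comparison, 0.205% of all genes tested were called higher at an adjusted p under 0.05, and 0.0282% lower. These are 29 and 4 genes, and leaving out any 1 library gave 9 to 14 higher and 2 to 4 lower. The 3 knockout values lay above the 3 wild-type values for 5 of the 6 (all but Krt8), against 7.83% of all genes tested. The median log2 change was 0.49 over the 6 and 0.00 over all genes tested. Krt8, whose change of 0.42 enters that median, passed the filter through the knockout. Its mean was 0.897 FPKM in knockout and 0.371 FPKM in wild type. Krt19 had a mean of 0.446 FPKM and was not tested.

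**Figure D1:**
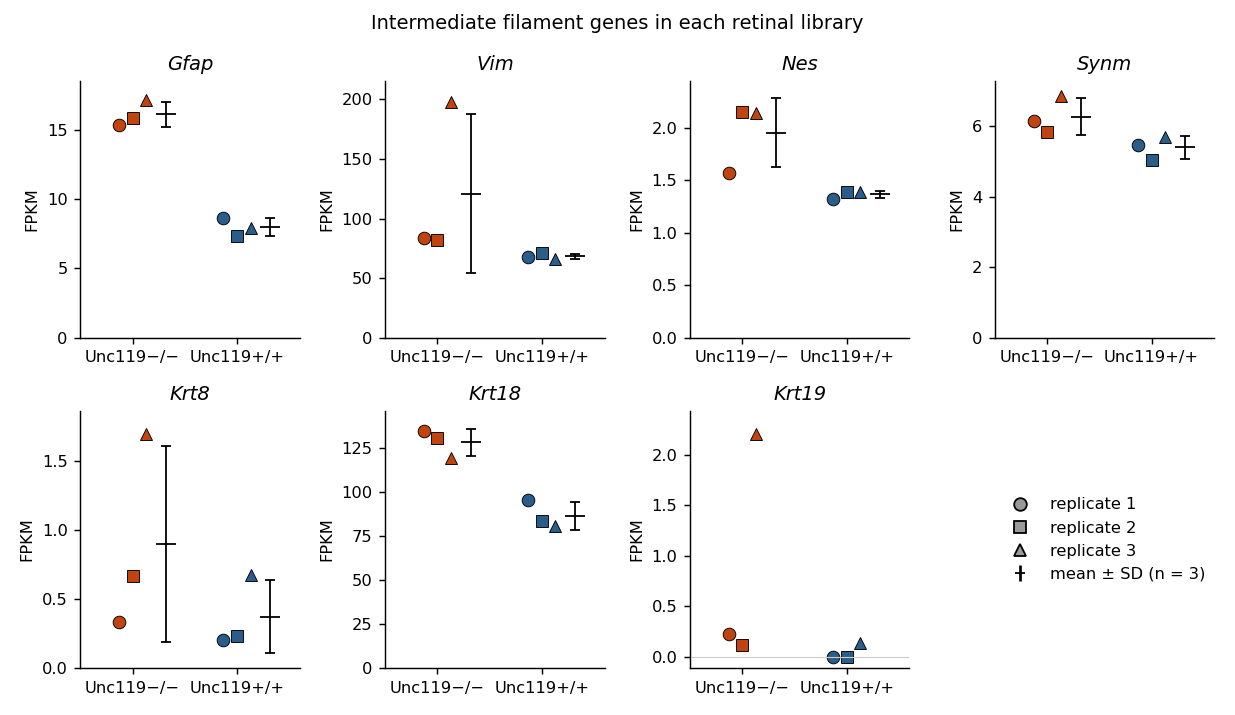
FPKM (linear axis from 0) of the 7 filament genes in each library, knockout left of wild type, with the symbol giving the replicate and the bar the mean ± SD of 3 (not drawn for Krt19, which has libraries at 0). Gfap and Krt18 are separated by genotype with little spread, while in Vim, Krt8 and Krt19 knockout replicate 3 stands far above the rest.

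Gfap, the filament of astrocytes and of reactive Müller glia, had 2.02 times as much RNA in the knockout retina, over means of 3 libraries. It measured 15.3, 15.8 and 17.1 FPKM in knockout replicates 1, 2 and 3, and 8.63, 7.35 and 7.91 FPKM in wild-type replicates 1, 2 and 3. The groups did not overlap, and the lowest knockout value was well above the highest wild-type value. The means were 16.1 ± 0.929 FPKM in knockout and 7.96 ± 0.644 FPKM in wild type (SD, n = 3 each). The log2 change was 0.93 (SE 0.08, 95% interval 0.75 to 1.12, limma adjusted p = 0.0045), while the exact permutation test of the gene alone gave 0.1, the least that 3 against 3 allows. Without knockout replicate 3 the ratio was 1.96, and the log2 change was 0.87 between the male libraries and 0.97 between the female ones, each with a single library on 1 side. The call held without any single library (adjusted p up to 0.0432). It was lost with the lens term as a covariate in the fit (log2 change 0.91, adjusted p = 0.0631). The lens term is the mean log2(FPKM + 1) of the 10 lens markers in each library. In whole retina, a change in the number of cells of a type and one in RNA per cell (fewer cells or less RNA in each, or more) cannot be told apart, nor can astrocytes and Müller glia as the place of Gfap RNA.

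Of the markers of glial cells besides the members, Ctss of the microglia list was called. Among the 12 Müller glia markers besides Vim none was called by limma, and their median log2 change was 0.07. At an unadjusted p under 0.05, 2 of them were higher, Clu (clusterin, log2 change 0.64) and Apoe (apolipoprotein E, 0.43), and 1 was lower, Glul (glutamine synthetase, −0.11). Over all genes tested the shares at that threshold were 5.19% higher and 3.81% lower. Their summed level was 2109, 2165 and 2557 FPKM in knockout replicates 1, 2 and 3, and 2135, 2113 and 2009 FPKM in wild-type replicates 1, 2 and 3. The astrocyte markers besides Gfap summed to 15.6, 14.0 and 38.1 FPKM in the knockout libraries and 13.9, 12.6 and 13.4 FPKM in the wild-type libraries. None of the 4 tested was called, and 1 was higher at an unadjusted p under 0.05, S100b (log2 change 0.33). The genotypes did not overlap in Pdgfra (0.54), against 7.83% of all genes tested. They overlapped in S100b, Aldh1l1 (0.12) and Gja1. Gja1, the gap junction gene connexin 43, had a log2 change of 1.10 (limma adjusted p = 0.682), with 17.5 FPKM in knockout replicate 3 and at most 1.54 FPKM in any other library. Pax2, a defining gene of optic nerve and retinal astrocytes, was at 0.377, 0.237 and 0.457 FPKM in knockout and 0.173, 0.264 and 0.219 FPKM in wild type, so near the floor in each. The 7 microglia markers summed to 37.3, 36.6 and 36.2 FPKM in the knockout libraries and 24.1, 24.2 and 24.5 FPKM in the wild-type libraries. Their called member was Ctss, the lysosomal protease cathepsin S (log2 change 0.58, adjusted p = 0.0303), a call lost in 10 of 15 alternative fits. All 7 had a log2 change above 0, and in 4 all knockout values lay above all wild-type values, against 7.83% of all genes tested. These were Ctss, Tyrobp, Aif1 (log2 change 0.57) and Cx3cr1 (0.20). Tyrobp, a signalling adaptor of myeloid cells, had a log2 change of 1.10 (limma adjusted p = 0.156). At an unadjusted p under 0.05, 3 were higher, Ctss, Tyrobp and Aif1, against 5.19% of all genes tested. The genotypes overlapped in Csf1r (0.10), P2ry12 (0.13) and Tmem119 (0.23). The genes named here besides Ctss and Pax2 were chosen after their values were seen. The part of these cell types in the change of Gfap was not tested.

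Vim, the vimentin gene, was the most abundant of the glial filament genes and was higher in each knockout library, but its change did not pass the test. It measured 83.3, 81.6 and 198 FPKM in knockout replicates 1, 2 and 3, and 67.3, 70.7 and 66.4 FPKM in wild-type replicates 1, 2 and 3. Knockout replicates 1 and 2 lay close together a little above wild type, and knockout replicate 3 was far above all others. The log2 change was 0.69 (SE 0.30, 95% interval −0.01 to 1.39, limma adjusted p = 0.562), and without knockout replicate 3 it was 0.27 (adjusted p = 0.211). The knockout mean was then 82.4 FPKM, 1.21 times the wild-type mean of 68.2 ± 2.24 FPKM (SD, n = 3). With the lens term the log2 change was 0.20.

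Vimentin is also a main filament of the lens, beside the beaded filament proteins filensin (Bfsp1) and phakinin (Bfsp2), which are lens-specific. Bfsp2 was at 0.584, 2.64 and 21.5 FPKM in knockout replicates 1, 2 and 3, and 1.31, 2.46 and 0.113 FPKM in wild-type replicates 1, 2 and 3. Bfsp1 was at 1.40, 5.11 and 16.3 FPKM in the knockout libraries, and 1.35, 2.98 and 0.0712 FPKM in the wild-type libraries. Like Vim, each was highest where lens RNA was highest, in knockout replicate 3, and neither was called (adjusted p = 0.692 and 0.573). Wild-type replicate 2 had more lens RNA than knockout replicates 1 and 2, and lower Gfap and Krt18 than either. Wild-type replicates 1 and 3 had less lens RNA than every knockout library, and also lower Gfap and Krt18. These comparisons were chosen after the values were seen. Within the knockout Gfap was ordered as the lens sums were and Krt18 in the reverse order. With the lens term neither gene was called (adjusted p = 0.0631 for Gfap and 0.199 for Krt18). The part of lens RNA in these changes was not otherwise tested.

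**Figure D2:**
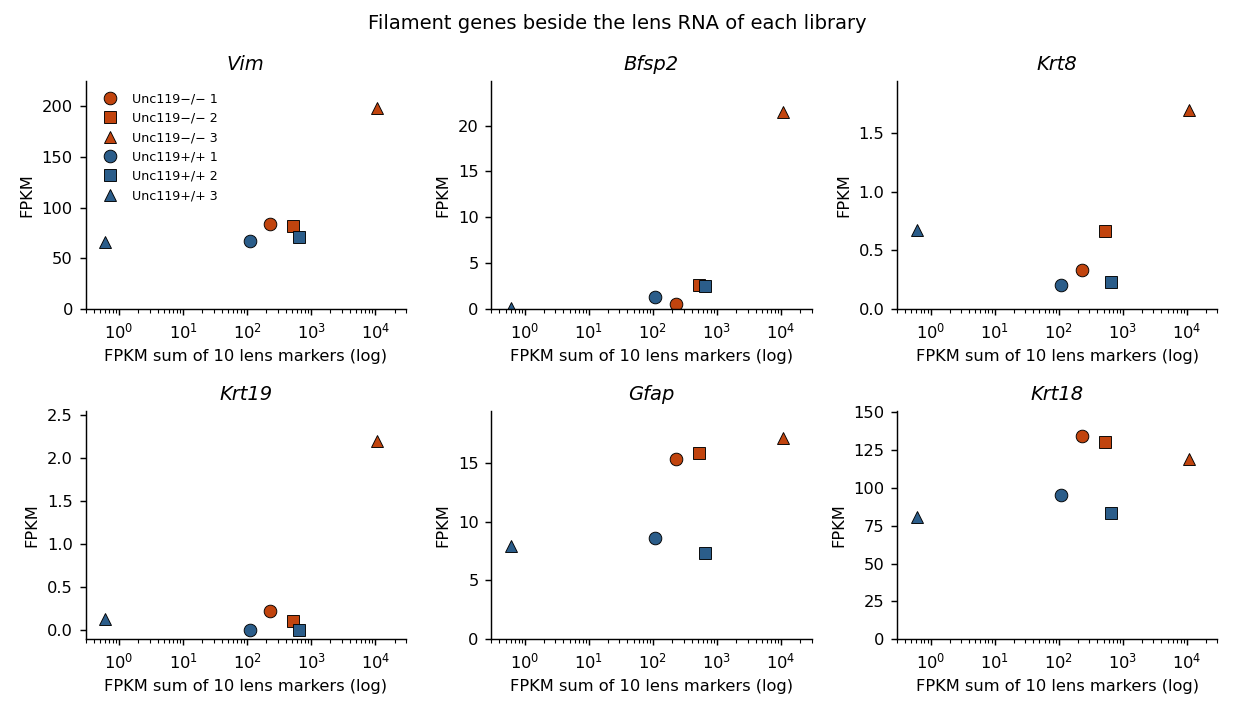
FPKM of 6 filament genes (linear axes) against the summed FPKM of 10 lens markers in the same library (log axis), with colour for genotype and symbol for replicate. Vim, Bfsp2, Krt8 and Krt19 are highest in knockout replicate 3, where lens RNA sums to 10620 FPKM. Gfap and Krt18 are higher in every knockout library than in any wild-type library.

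Nes and Synm, whose products co-assemble with vimentin, had smaller log2 changes than Gfap and Vim over the 6 libraries. Nes, known from neural progenitors and reactive glia, measured 1.57, 2.14 and 2.14 FPKM in knockout replicates 1, 2 and 3, and 1.32, 1.39 and 1.38 FPKM in wild-type replicates 1, 2 and 3. The groups did not overlap, but knockout replicate 1 was closer to wild type than to the other knockout libraries. The log2 change of Nes was 0.31 (SE 0.13, 95% interval 0.01 to 0.61, limma adjusted p = 0.535). Without knockout replicate 3 it was 0.27, as for Vim, while the ratio of means was 1.36 for Nes and 1.21 for Vim. Synm, synemin, measured 6.13, 5.84 and 6.84 FPKM in knockout and 5.45, 5.04 and 5.70 FPKM in wild type, with a gap between the groups smaller than the spread within either. Its log2 change was 0.18 (SE 0.09, 95% interval −0.03 to 0.39, adjusted p = 0.598). Synm shares bases with Ttc23 on the other strand, as Gfap does with the non-coding gene Gm26668 and Krt8 with Gm36026. No source used here says whether fragments were counted by strand.

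Krt18, the type I keratin of simple epithelia, was the most abundant member of all and was 1.48 times as high in the knockout as in wild type. It measured 134, 131 and 119 FPKM in knockout replicates 1, 2 and 3, and 95.1, 83.3 and 80.6 FPKM in wild-type replicates 1, 2 and 3. The groups did not overlap, and the lowest knockout value was that of replicate 3, where lens RNA was highest. The means were 128 ± 7.84 FPKM in knockout and 86.3 ± 7.74 FPKM in wild type (SD, n = 3 each). The log2 change was 0.57 (SE 0.07, 95% interval 0.40 to 0.74, limma adjusted p = 0.0379). The exact permutation test of the gene alone gave 0.1, the least that 3 against 3 allows. Between male libraries the log2 change was 0.59 and between female ones 0.63, each with a single library on 1 side. The call was close to the threshold. It was lost without knockout replicate 1, 2 or 3 (adjusted p = 0.159, 0.186 and 0.0559) or wild-type replicate 2 or 3 (adjusted p = 0.156 and 0.162). The lens term gave an adjusted p of 0.199, and testing all genes without a filter gave 0.0739. The log2 change stayed between 0.52 and 0.64 in these fits. A processed pseudogene, Gm5200, is 90.5% identical over 1267 bases of the Krt18 transcript, so some of its fragments could be shared.

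**Figure D3:**
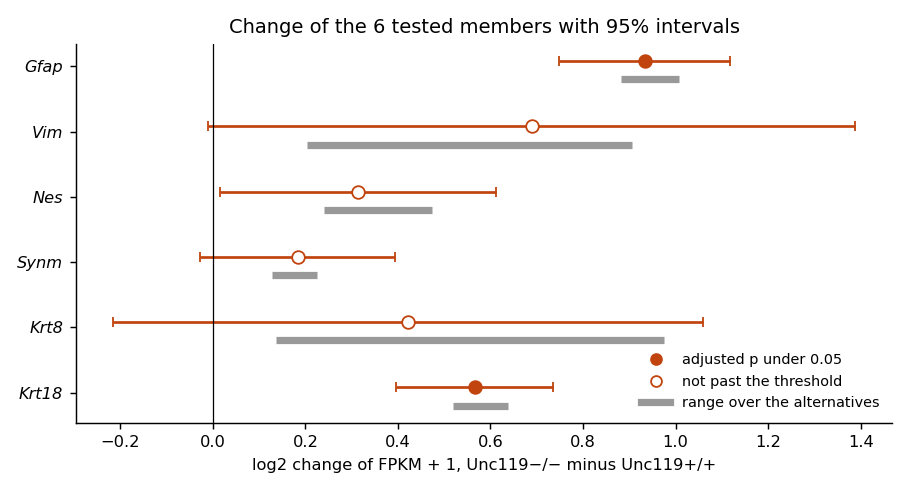
Log2 change of FPKM + 1, knockout minus wild type, for the 6 tested members, with 95% intervals from limma (filled points passed an adjusted p of 0.05) and, in grey, the range over the alternative settings. Gfap at 0.93 and Krt18 at 0.57 have narrow intervals above 0, while that of Vim runs from −0.01 to 1.39.

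Krt8, the type II partner of Krt18, was almost absent from the same libraries. It measured 0.332, 0.667 and 1.69 FPKM in knockout replicates 1, 2 and 3, and 0.203, 0.233 and 0.675 FPKM in wild-type replicates 1, 2 and 3. The groups overlapped, since wild-type replicate 3 was above knockout replicates 1 and 2. The log2 change was 0.42 (SE 0.28, limma adjusted p = 0.678), and 0.14 without knockout replicate 3. A processed pseudogene, Krt8-ps, is 98.6% identical over 941 bases, so the level of Krt8 is uncertain. Per length, Krt18 was 405, 196 and 70.5 times Krt8 in knockout replicates 1, 2 and 3, and 468, 358 and 119 times in wild-type replicates 1, 2 and 3.

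The values of Krt8 and Krt19 were so low that they fell into steps. Multiplied by relative depth, each was a whole multiple of a common step, to within 0.02 of a step. For Krt8 the multiples were 4, 8 and 21 in knockout replicates 1, 2 and 3, and 2, 3 and 7 in wild-type replicates 1, 2 and 3. For Krt19 they were 2, 1 and 20 in the knockout libraries, at 0.227, 0.114 and 2.20 FPKM, and 0, 0 and 1 in the wild-type libraries, listed at 0, 0 and 0.132 FPKM. A step is the largest unit that divides all 6 values and may be a single fragment. Of the 23 steps of Krt19 in the knockout, 20 came from knockout replicate 3, so no fold between genotypes is given.

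Among all keratin genes of the tables Krt18 stood alone in level. Of 28 type I genes, 1 had a mean of at least 10 FPKM, Krt18 at 107 FPKM over the 6 libraries, followed by Krt222 at 5.44 and Krt12 at 4.11 FPKM. Of 24 type II genes, which could pair with it, none reached 10 FPKM, and the highest was Krt5 at 1.81 FPKM. The type II genes together summed to 12.7, 3.66 and 3.06 FPKM in knockout replicates 1, 2 and 3, and 1.32, 4.12 and 1.49 FPKM in wild-type replicates 1, 2 and 3. Krt18 was thus 10.5 to 38.9 times their sum in the knockout libraries and 20.2 to 72.3 times in the wild-type libraries. This comparison by keratin type was chosen after the values were seen.

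**Figure D4:**
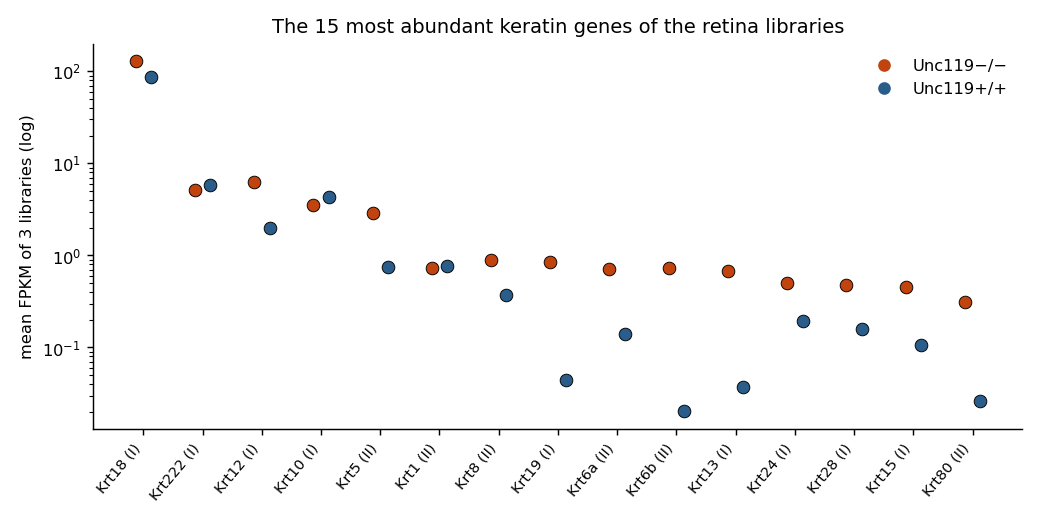
Mean FPKM of 3 libraries (log axis) for the 15 keratin genes with the highest mean over all 6 libraries, knockout left of wild type, with the keratin type in brackets. Krt18 lies above every other keratin in each genotype, and Krt8 and Krt19 are under 1 FPKM.

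Markers of surface epithelium varied widely between libraries and were not called. The 9 markers summed to 25.3, 6.43 and 40.5 FPKM in knockout replicates 1, 2 and 3, and 2.39, 11.4 and 2.81 FPKM in wild-type replicates 1, 2 and 3. The sum was higher in knockout replicates 1 and 3 than in any wild-type library. Of the 5 tested, 3 were higher and 2 lower, with a median log2 change of 0.94. That median is the value of Cdh1, which passed the filter through its knockout mean of 1.92 FPKM (0.174 FPKM in wild type). The lower ones were Cldn7 (log2 change −0.25) and Esrp1 (−0.09). Cldn7 was at 0.845, 1.02 and 0.984 FPKM in knockout and 1.04, 1.58 and 1.38 FPKM in wild type, without overlap, against 8.04% of all genes tested. Knockout replicate 2 had a lower marker sum than wild-type replicate 2. Krt18 was at 134, 131 and 119 FPKM in the knockout libraries and 95.1, 83.3 and 80.6 FPKM in the wild-type libraries. The epithelial adhesion gene Epcam was at most 0.0719 FPKM and Cldn4, a tight junction gene, at most 0.165 FPKM in any library. Cdh1, the epithelial cadherin, was at 0.316, 0.444 and 4.999 FPKM in the knockout libraries and 0.271, 0.177 and 0.0735 FPKM in the wild-type libraries, without overlap (log2 change 0.94, limma adjusted p = 0.636). Aldh3a1, a corneal dehydrogenase, was at 7.93, 1.44 and 33.0 FPKM in the knockout libraries and 0.117, 3.21 and 0.444 FPKM in the wild-type libraries (log2 change 2.26, adjusted p = 0.522), and was the marker at an unadjusted p under 0.05. The part of surface epithelium in the change of Krt18 was not tested. Krt12, the keratin of corneal epithelium, was at 14.8, 2.91 and 0.938 FPKM in the knockout libraries and 0.197, 5.42 and 0.374 FPKM in the wild-type libraries. Krt5, a type II keratin of basal epithelium, was at 7.29, 1.21 and 0.0650 FPKM in the knockout libraries and 0, 2.19 and 0.0778 FPKM in the wild-type libraries, so both keratins also differed between libraries of the same genotype.

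The other filament genes gave no call. Of 28 further genes (other simple keratins, stratified keratins, neuronal, muscle and lens filaments, and nuclear lamins) 15 were tested by limma, none was called, and 1 was higher at an unadjusted p under 0.05. By group, 1 of 5 other simple keratins was tested, 4 of 12 stratified keratins, 7 of 8 other cytoplasmic filaments and 3 of 3 lamins. The lowest p among them was that of Lmna, which encodes the A-type lamins of the nuclear envelope, at 6.65, 5.98 and 8.74 FPKM in knockout and 5.60, 5.21 and 5.06 FPKM in wild type (log2 change 0.35, adjusted p = 0.499). Nefl, the neurofilament light chain of ganglion cell axons, was the most abundant at 150, 155 and 151 FPKM in knockout and 167, 163 and 151 FPKM in wild type (log2 change −0.07, 95% interval −0.18 to 0.04, adjusted p = 0.692). Lmnb1, the most abundant lamin gene, had a log2 change of −0.09 and Krt222 one of −0.14, with adjusted p of 0.772 and 0.738. Lmna was chosen after its values were seen.

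Of 17 genes whose products link or chaperone filaments, 14 were tested and none was called by limma, with 2 higher and 1 lower at an unadjusted p under 0.05 (5.19% and 3.81% of all genes). These were Pkp2, plakophilin 2 (log2 change 0.42), and Evpl, envoplakin (0.36), and the lower Syne3, a nesprin (−0.24). The genotypes did not overlap in 2 that were higher, Evpl and Plec, the plakin plectin (0.18), and 2 that were lower, Syne3 and Dst, the plakin dystonin (−0.12), against 7.83% and 8.04% of all genes. The adjusted p of these 5 ran from 0.460 to 0.624, and they were chosen after their values were seen. The filament chaperone Cryab, also a lens crystallin, was at 58.9, 84.6 and 2185 FPKM in knockout replicates 1, 2 and 3, and 46.6, 110 and 32.9 FPKM in wild-type replicates 1, 2 and 3.

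Gfap is a target of STAT3 downstream of gp130 cytokine receptors, and of the 14 genes described for that route 11 were tested. None was called by limma, and 4 were higher at an unadjusted p under 0.05, against 5.19% of all genes: Osmr, Cntf, Socs3 and Stat3. For the same 4 all knockout values lay above all wild-type values, and for 2 they lay below, the receptor genes Lifr and Cntfr. The background for such separation was 7.83% of all genes higher and 8.04% lower, and the median change of the route was −0.00 on the log2 scale. Stat3 itself measured 24.1, 29.4 and 25.8 FPKM in knockout and 19.8, 21.9 and 20.3 FPKM in wild type (log2 change 0.34, adjusted p = 0.284). On the receptor side Osmr, the oncostatin M receptor gene, measured 3.82, 5.94 and 4.29 FPKM in knockout and 2.18, 2.58 and 1.74 FPKM in wild type (log2 change 0.84, adjusted p = 0.194). The ligand Cntf, ciliary neurotrophic factor, measured 4.38, 5.73 and 9.36 FPKM in knockout and 4.23, 3.35 and 2.16 FPKM in wild type (log2 change 0.79, adjusted p = 0.463). Jak1, the most abundant of the route, had a log2 change of −0.06 (95% interval −0.17 to 0.04), and Osm was listed at 0 in every library. These genes besides Jak1 were chosen after their values were seen.

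**Figure D5:**
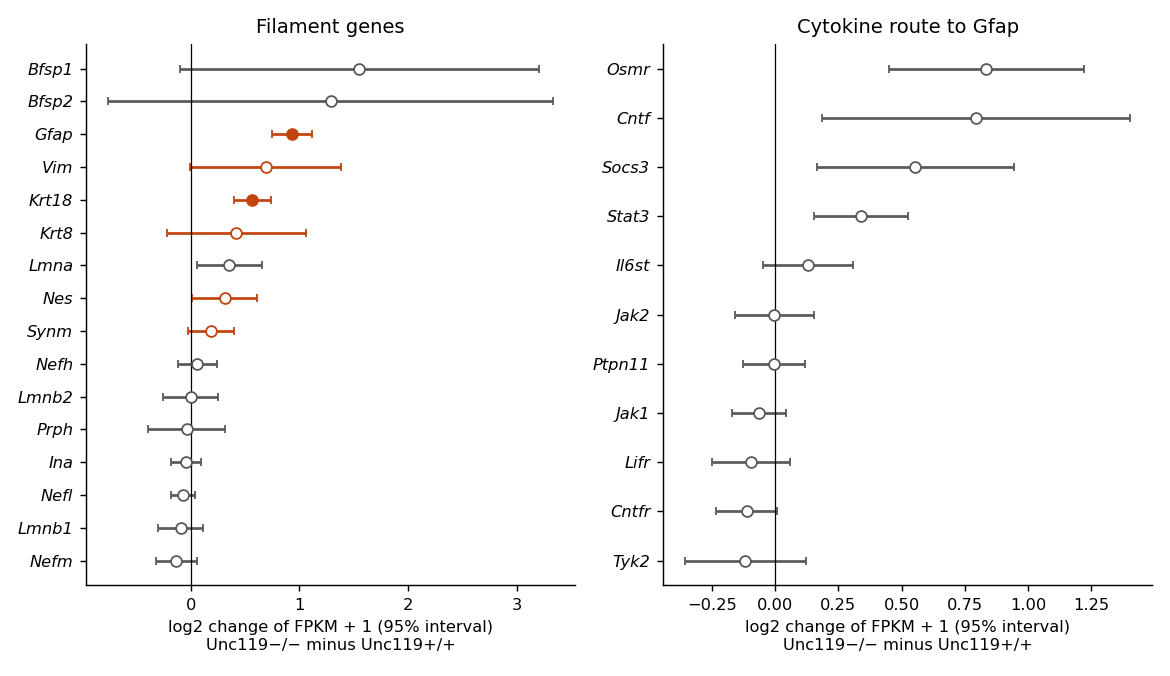
Log2 change of FPKM + 1 with 95% intervals, knockout minus wild type, for the tested genes of the glial, simple keratin, other cytoplasmic and lamin groups (left, the members in colour) and of the cytokine route to Gfap (right), filled where the adjusted p was under 0.05. Only Gfap and Krt18 are filled, and the neurofilament genes lie near 0.

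Of 16 genes of reactive glia and retinal stress, 14 were tested and 4 rose, against a background of 0.205%: Edn2 (endothelin 2), Fgf2 (a survival factor of photoreceptors), Cebpd (an acute-phase transcription factor) and Serpina3n (a protease inhibitor). Their log2 changes were 3.20, 2.45, 1.33 and 1.08, each above the 0.93 of Gfap; these differences between genes were not tested. Of 15 alternative fits, the call was lost in none for Edn2, in 5 for Fgf2, in 6 for Serpina3n and in 11 for Cebpd. The list is not independent of earlier results of these data.

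The profiles over the 6 libraries most like those of the members were found by the root mean square difference of log2(FPKM + 1), each gene taken relative to its wild-type mean. Closest to Gfap were Antxr2, an anthrax toxin receptor gene, at a difference of 0.0753 log2 units, then Sox30 at 0.109 and Lcn2 at 0.111. Antxr2 measured 13.8, 14.9 and 14.5 FPKM in knockout and 7.76, 6.35 and 7.89 FPKM in wild type, and its call was lost in 7 of 15 alternative fits. Closest to Krt18 were Nlrx1 (0.0602), Il15 (0.0970) and Zswim7 (0.0993), none of them called. Closest to Vim were Anxa2 (0.0764), Neat1 (0.105) and S100a11 (0.108). Like Vim they were highest in knockout replicate 3, where Anxa2 was at 19.7 FPKM against 8.40 and 9.24 FPKM in knockout replicates 1 and 2. Nes was closest to Sbno2 (0.0452), Atp6v0e (0.0478) and Gpr157 (0.0482), and Synm to Pfkl (0.0295), Mlc1 (0.0296) and Cntn3 (0.0334). Genes with small changes have many near neighbours by this measure.

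The remaining marker lists gave no call by limma. Endothelial markers (8 tested) had a median log2 change of 0.01, mural cell markers (7 tested) of 0.10, oligodendrocyte markers (2 tested) of 0.10, ganglion cell markers (6 tested) of −0.06 and rod markers (7 tested) of −0.03. Together 1 of these genes, of the ganglion cell list, had an unadjusted p under 0.05 and was lower. Pigment epithelium markers (7 tested, none at an unadjusted p under 0.05) had a median of 0.46 and lens markers (10 tested, 2 higher at an unadjusted p under 0.05) of 2.83, with sums that differed widely within each genotype. The mural markers, from cells that also make vimentin and nestin, summed to 26.4, 21.5 and 40.4 FPKM in the knockout libraries and 25.0, 23.6 and 22.6 FPKM in the wild-type libraries.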

How the data were processed

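mRNA of whole mouse retina was sequenced from 3 Unc119-/- and 3 Unc119+/+ libraries, made with TRIzol and a stranded mRNA kit per the labels. Per the submitters' processing notes the authors used TopHat2 2.1.1 and Cuffdiff 2.2.1 on mm10; no source used here states the annotation, strand setting or scaling. Values were deposited by the authors as FPKM, 1 table per library per the file headers, so fragment numbers and absolute depth are unknown, and rising genes can lower the rest. No 2 libraries were identical, and median-of-ratios factors ran from 1.001 to 1.002.

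The genotypes were compared in limma 3.58.1 (R 4.3.3) with a mean-variance trend on log2(FPKM + 1), which understates the change of low genes, for genes with a mean of at least 0.5 FPKM, two-sided, adjusted over all genes, threshold 0.05. The fit was tested on simulated data. Relative depth came from the commonest ratio of genes at or under 0.3 FPKM. Transcript copies were searched with BLAST+ 2.17.0, at 90% identity over 300 bases. Python 3.11.15 did the rest.

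The members, the gene lists (other filaments, linkers, the cytokine route to Gfap, reactive glia, and markers of 11 cell types) and the tests were chosen with earlier results of these data known. Named are all members, called genes of each list or otherwise its most abundant member, and the 3 nearest profiles of each member whose genotypes did not overlap. Others were chosen after their values were seen. Some genes of these lists are not reported here. Alternatives were another pseudocount, filters, scalings, weights, sex, lens and replicate terms, and leaving out each library.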

Additional observations from a re-analysis of the deposited data

How the results depend on the processing

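Gfap, Vim, Synm and Krt18 kept their direction under all 15 alternatives, Nes and Krt8 under the 14 that tested them, and Krt19 under the 9 computed for it. Left out one at a time, the libraries gave 9 to 14 genes called higher (29 in all 6), 2 to 4 lower (4), 1 to 2 members (2) and 1 to 2 listed genes besides the members (5). Each such fit has fewer residual degrees of freedom. Gfap then changed by 0.88 to 0.99 and Krt18 by 0.52 to 0.64 on the log2 scale. Krt19 lay between 0.17 and 0.93, and at 2.04 with a pseudocount of 0.1 against 0.65 with 1, which follows from the smaller pseudocount. With the lens term 5 genes were called higher and 2 lower, 0 members and 1 listed gene; Gfap was at 0.91 (adjusted p = 0.0631) and Krt18 at 0.61 (adjusted p = 0.199), and Cryab and Bfsp2 turned to −0.36 and −0.46. With the sex term 17 were called higher and 2 lower, and 3 listed genes. With no filter on low values 2 were called lower, 1 member and 3 listed genes, and Krt18 was at 0.57 (adjusted p = 0.0739). The cause of the lost calls was not tested.

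With the replicate number as a block 13 genes were called higher and 2 lower, and 2 listed genes; Gfap (adjusted p = 0.0384) and Krt18 (adjusted p = 0.0366) kept their calls. The numbers only name samples: deviations from the group means of same-numbered libraries correlated at 0.07, −0.09 and −0.12 across genes, and not every library correlated best with its own number.

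Krt8 and Krt19, at 21 steps or fewer in each library, cannot show a change of moderate size. No result met the rules for a closer look, and groups of 3 are too small for a test of single outlying libraries.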
